A study of Mus musculus with 16 samples.

Results

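Cells that cannot remove DNA methylation (TET_KO) were compared with cells that cannot add it (DNMT_KO) by the contacts of their gene promoters. The comparison covers the 4 knock-out groups, which hold 8 of the 16 samples of the series, with 2 labelled replicates each, and all 260860 listed contacts of 20017 promoter fragments. DNMT_KO cells lack Dnmt1, Dnmt3a and Dnmt3b, and TET_KO cells lack Tet1, Tet2 and Tet3. Both were profiled as mouse embryonic stem cells (ESC, day 0), grown in 2i medium with Lif, and as epiblast-like cells (EpiLC, day 2) made from them. The parental lines, DNMT_WT and TET_WT, were profiled at the same stages and serve here as the background. Each genotype is 1 cell line and each knock-out has its own parent, so the absence of the enzymes and the origin of the line cannot be told apart between DNMT_KO and TET_KO.

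Dnmt3a and Dnmt3b place methyl groups on cytosines of CG pairs and Dnmt1 copies them to the new strand after replication, while the Tet enzymes oxidise the methyl group, which starts its removal. Naive embryonic stem cells in 2i carry little methylation and gain it on the way to the epiblast state. Methylation can keep the insulator protein CTCF from its sites, and unmethylated CG-rich DNA recruits Polycomb complexes, which hold developmental genes silent and bring their promoters together in the nucleus. Promoter-capture Hi-C cuts fixed chromatin with HindIII, joins fragments that lie near each other, and enriches the pairs that hold a promoter.

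The deposited value of a contact is its CHiCAGO score, which is high where 2 fragments were joined more often than their distance and fragment properties predict, and a score of 5 or more is called a contact here. There is 1 column of scores for each line and stage, so no value has an SD over cultures, and the sequencing depth is unknown. Contacts at 5 or more numbered 83200 in DNMT_KO and 93568 in TET_KO at the ESC stage, and 89709 and 100796 at the EpiLC stage. The 4 wild-type columns held 86557 to 93930. A difference in the number of contacts and a difference in depth cannot be told apart.

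A wild-type column stands apart from its own line. Contacts spanning more than 5 Mb of chromosome 4 numbered 1755 in DNMT_KO ESC, 1933 in DNMT_KO EpiLC and 2222 in DNMT_WT EpiLC, yet 205 in DNMT_WT ESC, against 8 to 19 in the 4 TET columns. The wild-type difference in ESC and every subtraction of wild-type from knock-out differences rest on that column. Some results are therefore also given without it. The comparison of the knock-outs themselves does not subtract it. In the chromosome 4 counts above, an empty score counted as no contact. Of 15344 contacts with an empty score in some column, 5702 had their promoter on chromosome 4.

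Upstream sequences of 6 named promoters, 3 in each direction, are shown because CG pairs, in capitals, are the sites that both sets of enzymes act on. They are the 250 bases before the RefSeq start on GRCm38.p6, read on the strand of the gene. The first 3 belong to promoters with higher scores in TET_KO, Rheb (chr5:24842362-24842611, minus strand), Hjurp (chr1:88277580-88277829, minus strand) and Lhfpl2 (chr13:94057546-94057795, plus strand).
Rheb: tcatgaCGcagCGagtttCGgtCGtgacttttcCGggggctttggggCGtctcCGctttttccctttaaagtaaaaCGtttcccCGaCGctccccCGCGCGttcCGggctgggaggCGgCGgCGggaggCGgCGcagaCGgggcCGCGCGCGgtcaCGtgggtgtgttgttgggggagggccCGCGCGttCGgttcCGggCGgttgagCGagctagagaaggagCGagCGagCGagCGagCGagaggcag
Hjurp: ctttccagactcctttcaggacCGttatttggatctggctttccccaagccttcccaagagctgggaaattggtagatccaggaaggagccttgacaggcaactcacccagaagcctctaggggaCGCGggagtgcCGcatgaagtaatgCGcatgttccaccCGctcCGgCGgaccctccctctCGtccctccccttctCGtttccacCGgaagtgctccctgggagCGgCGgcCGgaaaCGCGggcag
Lhfpl2: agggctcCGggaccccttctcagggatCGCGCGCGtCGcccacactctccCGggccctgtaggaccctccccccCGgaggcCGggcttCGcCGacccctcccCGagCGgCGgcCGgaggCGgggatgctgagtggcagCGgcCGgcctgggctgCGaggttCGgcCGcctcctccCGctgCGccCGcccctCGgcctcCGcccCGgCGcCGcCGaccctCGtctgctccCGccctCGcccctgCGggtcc
The other 3 belong to promoters with lower scores in TET_KO, Pramel1 (chr4:143394191-143394440, plus strand), Ccr2 (chr9:124101933-124102182, plus strand) and Fam46b, listed by RefSeq as Tent5b (chr4:133479883-133480132, plus strand).
Pramel1: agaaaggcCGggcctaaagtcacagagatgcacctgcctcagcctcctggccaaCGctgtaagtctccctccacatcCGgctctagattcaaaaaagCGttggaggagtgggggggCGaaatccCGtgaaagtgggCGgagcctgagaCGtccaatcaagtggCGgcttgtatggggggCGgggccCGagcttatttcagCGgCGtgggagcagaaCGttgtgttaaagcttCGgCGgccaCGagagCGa
Ccr2: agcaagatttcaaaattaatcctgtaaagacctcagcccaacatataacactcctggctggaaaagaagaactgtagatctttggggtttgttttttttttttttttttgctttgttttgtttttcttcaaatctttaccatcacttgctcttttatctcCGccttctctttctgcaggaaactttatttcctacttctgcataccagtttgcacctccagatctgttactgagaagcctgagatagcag
Fam46b: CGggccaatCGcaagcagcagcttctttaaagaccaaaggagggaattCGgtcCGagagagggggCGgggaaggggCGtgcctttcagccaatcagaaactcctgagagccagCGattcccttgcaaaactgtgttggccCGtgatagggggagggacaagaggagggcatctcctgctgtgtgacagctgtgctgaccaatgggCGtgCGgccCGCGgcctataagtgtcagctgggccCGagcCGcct
The motif CG, which reads the same on both strands, occurs 37, 16 and 34 times in the first 3 sequences and 18, 1 and 14 times in the other 3. Over 32851 RefSeq windows of this length, 92.1% hold at least 1 CG, with a median of 6. Of the 6 printed sequences 5 lie above the median, and that of Ccr2 lies below it. CG-poor promoters were not limited to the lower scores. C3, named below among the promoters with higher scores and not printed, held 3 CG in a window of 300 bases.

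A promoter's value is the mean asinh of the score over its listed contacts, after quantile normalisation between columns. The asinh behaves as a logarithm for high scores, where a difference of 0.7 is 2.01-fold. Differences are given as TET_KO minus DNMT_KO, and ± is the standard error of limma. That error comes from how differences between lines vary between the 2 stages and over all promoters, not from replicate cultures.

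Few promoters differed between the knock-outs past the threshold. Of 15677 promoters, 14 were higher (0.0893%) and 27 lower (0.172%) in TET_KO at an adjusted p under 0.05 in limma, 0.262% in all, and 1234 (7.87%) and 1231 (7.85%) had an unadjusted p under 0.05. Between the wild-type lines the same fit called 0 higher and 3 lower (0.0191%), with 576 (3.67%) and 678 (4.32%) at an unadjusted p under 0.05. Subtracting the wild-type difference left 0 calls in limma, with 774 higher (4.94%) and 658 lower (4.2%) at an unadjusted p under 0.05. Because contacts are listed by their highest score, promoters whose contacts are high in 1 line alone had to differ, and the calls are not independent of that filter. The number of higher and lower calls depended on scaling, with 51 higher and 23 lower without scaling between columns. Without the DNMT_WT ESC column 90 promoters were called, among them all 41. When promoters with 1 or 2 contacts were admitted, 2 were called and 1 of the 41 remained, and with missing scores set to 0, 12 of the 41 remained.

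Among promoters with at least 10 contacts, the largest difference toward TET_KO lay on chromosome 5. Gm15552, a predicted gene (24867714 to 24874147), had values of 2.57 and 2.42 in TET_KO ESC and EpiLC, against 0.33 and 0.27 in DNMT_KO and 0.21 to 0.40 in the 4 wild-type columns. The difference was 2.19 ± 0.38. Rheb, the small GTPase that switches on mTORC1 (24839664 to 24843098), had values of 2.24 and 2.33 in TET_KO, against 0.25 and 0.29 in DNMT_KO and 0.17 to 0.39 in the wild types, a difference of 2.02 ± 0.39. For both promoters the TET_KO columns stood above the other 6, which overlapped. A contact is listed only if it reaches 5 in some column, so contacts that are high in TET_KO alone entered the table through it, and these differences are given as a description. Their farthest contacts reached the same stretch of chromosome 5, from 24211575 on. The contact of Gm15552 with the fragment at 24234927 to 24235534, 636 kb away and outside annotated genes, scored 11.9 and 14.3 in TET_KO and 0 to 0.247 in the other 6 columns. Rheb contacted the fragment at 24213909 to 24214882, 627 kb away, with scores of 5.73 and 7.003 in TET_KO and 0 to 0.0434 elsewhere. A neighbouring promoter, 4933426D04Rik, contacted the fragment at 24235535 to 24237224 with scores of 19.8 and 13.7 in TET_KO and 0 in each other column.

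Emx2os is transcribed opposite Emx2, a homeobox gene of forebrain and urogenital development (chromosome 19, 59449855 to 59461532). Its values were 2.69 and 2.58 in TET_KO, 1.13 and 1.00 in DNMT_KO, 0.82 and 0.88 in TET_WT, and 2.23 and 1.13 in DNMT_WT. The difference between the knock-outs was 1.57 ± 0.29 (adjusted p = 0.0332, limma), and TET_KO lay above all other columns, with DNMT_WT ESC the closest. Of its 22 contacts, all between 657 and 905 kb away, 21 were higher in TET_KO at both stages. Such counts, here and for the promoters below, describe promoters chosen for the mean of the same contacts. They are no separate support, and the share over all contacts was not counted. The contact with E330013P04Rik at 60153646 to 60155833 scored 17.3 and 11.3 in TET_KO, 0 and 0 in DNMT_KO, 0 and 1.34 in TET_WT, and 5.53 and 0 in DNMT_WT.

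Hjurp, which places the histone variant CENP-A at centromeres, was the promoter with the most contacts in the higher group (316, chromosome 1, 88276241 to 88278577). It had values of 2.46 and 2.36 in TET_KO and 1.36 and 1.29 in DNMT_KO, and the wild types lay between, at 1.41 to 1.93 (difference 1.09 ± 0.21, adjusted p = 0.0388, limma). Only 13 of its contacts lay within 1 Mb, and with those alone its call was lost (0.91, adjusted p = 0.0829, limma). By number it also held the most contacts that were high in TET_KO and low in DNMT_KO at both stages (72 of 316). Gm15552 was next by number (13 of 21) and had the larger share of its contacts. Of the 316 contacts of Hjurp 158 were higher in TET_KO at both stages. One of them, with chromosome 10 at 113211613 to 113213951, scored 72.3 and 99.5 in TET_KO, 0.163 and 0.298 in DNMT_KO, 18.7 and 63.0 in TET_WT, and 120 and 5.87 in DNMT_WT, so DNMT_KO was the low line there. Contacts between the first 5 Mb of chromosome 1 and the window of Hjurp (85 to 90 Mb) numbered 527 and 370 in TET_KO, 288 and 191 in DNMT_KO and 191 to 344 in the wild types.

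Of the other promoters of the higher group, AC150277.1 (1.21 ± 0.24) and AC158296.1 (1.00 ± 0.18) are known by clone names only. Nefl, the light chain of neurofilaments, differed by 0.94 ± 0.19, with 0.80 in ESC and 1.09 in EpiLC. Lhfpl2, a tetraspan membrane protein, differed by 0.81 ± 0.16, and all 22 of its contacts were higher in TET_KO at both stages. Its contact with Arsb, a lysosomal sulfatase gene 197 kb away, scored 9.86 and 12.4 in TET_KO, 1.97 and 0.0899 in DNMT_KO and 0.508 to 4.45 in the wild types. C3, the central complement component, differed by 0.73 ± 0.14. These 5 had adjusted p-values between 0.0332 and 0.0412 in limma. Mir146, which encodes a microRNA that dampens innate immune signalling, was not called. Among such promoters with at least 10 contacts it had the largest difference toward TET_KO (1.65 ± 0.41). Its values were 1.56 and 2.16 in TET_KO against 0.04 to 0.57 in the other columns. As for Gm15552, contacts high in TET_KO alone entered the table through TET_KO, and the difference is given as a description. Of the 14 promoters called higher, 11 had both TET_KO values above all 6 other columns. They were called for high TET_KO values, and the share over all promoters was not counted. Of the 14, 5 were higher in TET_WT than in DNMT_WT at both stages, against 25.2% of all promoters.

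**Figure D1:**
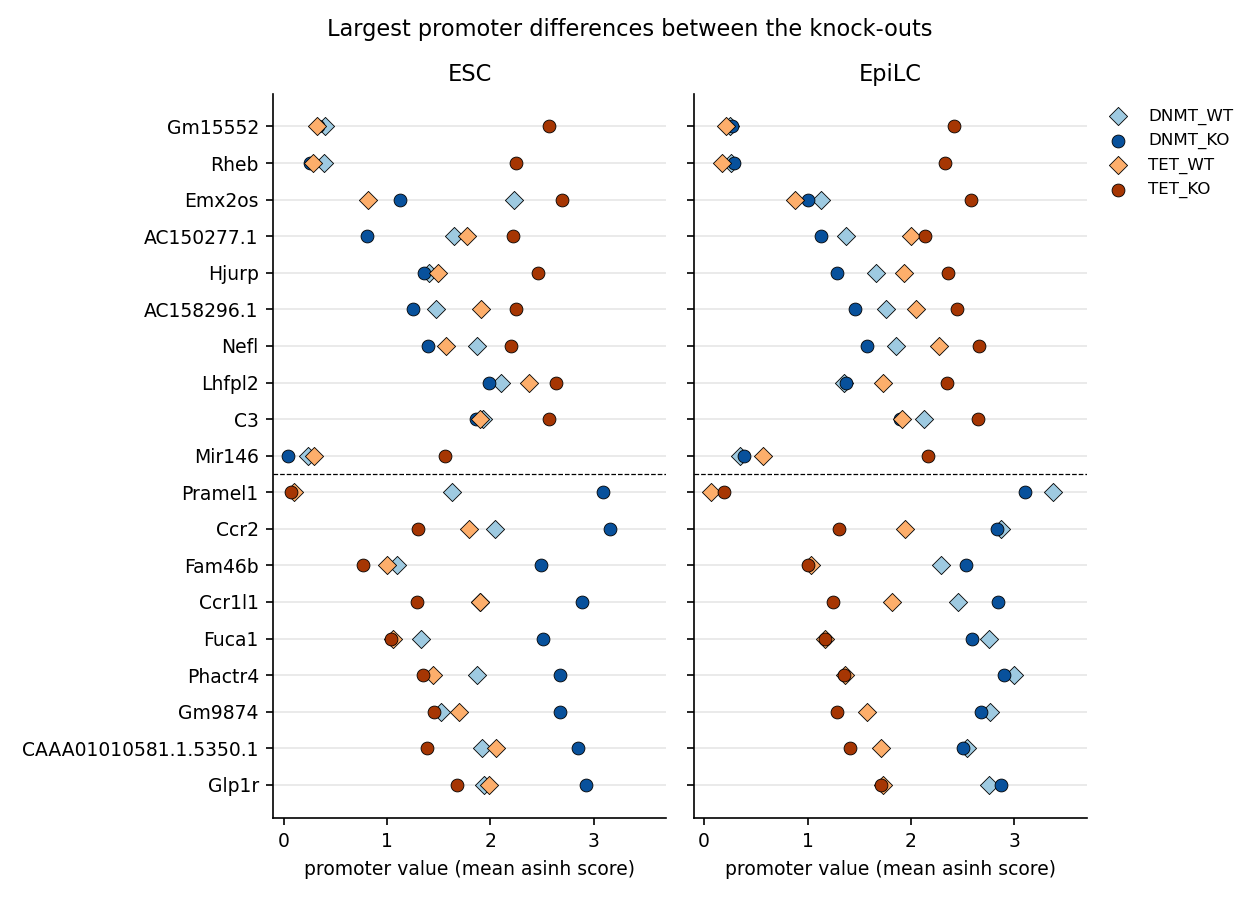
Promoter values (mean asinh score, x axis) of the named promoters in ESC (left) and EpiLC (right), with knock-outs as circles and wild types as diamonds, 1 point per column. Above the dashed line TET_KO is highest, with Gm15552 and Rheb at 2.24 to 2.57 against at most 0.40 elsewhere, and below it DNMT_KO is high and in EpiLC is close to DNMT_WT.

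Of the 27 promoters with lower values in TET_KO, 10 lay on chromosome 4, which holds 993 of the 15677 promoters, 4 on chromosome 9 (896 promoters), 3 on chromosome 8 (805) and 2 on chromosome 17 (670), and 14 had another called promoter within 1 Mb (2 of the 14 higher ones did). The wild types differed in the same direction at both stages for 18 of the 27, as against 28.4% of all promoters that were lower in TET_WT at both stages.

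Pramel1, of the PRAME-like family of germline and early embryo genes (chromosome 4, 143394418 to 143399756), showed the largest difference of all named promoters. Its values were 3.09 and 3.10 in DNMT_KO, 1.63 and 3.37 in DNMT_WT, and 0.07 to 0.19 in the 4 TET columns. The difference was −2.97 ± 0.36. It is given as a description, because contacts that are high in the DNMT columns alone entered the table through them. It rests on 20 of 69 listed contacts, since the others had an empty score in some column. The difference between the wild types was −1.53 in ESC and −3.30 in EpiLC. In EpiLC the DNMT_WT value was thus close to that of DNMT_KO, while in ESC it lay between DNMT_KO and the TET columns. Its contact with the fragment at 142387722 to 142390509, 1008 kb away in Gm42339, scored 34.9 and 34.2 in DNMT_KO, 11.1 and 49.5 in DNMT_WT and 0 in each TET column. Fam46b, a cytoplasmic poly(A) polymerase (−1.62 ± 0.30), Fuca1, the lysosomal fucosidase (−1.44 ± 0.29), and Phactr4, a regulator of phosphatase 1 and actin (−1.44 ± 0.22), lie between 132421232 and 135921488 on the same chromosome. Their contacts with the largest difference between the knock-outs joined fragments 2370 to 3643 kb apart and scored 0 in both TET_KO columns. With contacts within 1 Mb only, none of these 3 calls remained in limma, with Fuca1 at 0.01 (adjusted p = 0.982), Fam46b at −0.44 (adjusted p = 0.366) and Phactr4 at −0.30 (adjusted p = 0.3499).

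Chemokine receptor genes on chromosome 9 were among the lower promoters. Ccr2, the receptor that draws monocytes to inflamed tissue (124101643 to 124102244), had values of 3.16 and 2.83 in DNMT_KO, 2.05 and 2.88 in DNMT_WT, 1.79 and 1.94 in TET_WT, and 1.30 and 1.31 in TET_KO. The difference was −1.69 ± 0.19 (adjusted p = 0.000823, limma), and 50 of its 51 contacts were lower in TET_KO at both stages. That count is a description, since the promoter was chosen for the mean of these contacts. Ccr1l1, a gene like Ccr1, differed by −1.60 ± 0.17, with the smallest adjusted p of all promoters (0.000472, limma). The fragment CAAA01010581.1.5350.1 differed by −1.28 ± 0.19. Across these 3 promoters TET_KO was the lowest line at both stages, and TET_WT lay between it and the DNMT_KO column. The contact of Ccr2 with the largest difference between the knock-outs joined a fragment 376 kb away. It scored 10.9 and 13.2 in DNMT_KO, 1.76 and 10.4 in DNMT_WT, 2.03 and 2.80 in TET_WT and 0.191 and 1.32 in TET_KO.

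On chromosome 17 the promoter of Glp1r, the receptor of the incretin hormone GLP-1 (30892119 to 30903312), had values of 2.93 and 2.87 in DNMT_KO, 1.93 and 2.76 in DNMT_WT, 1.98 and 1.73 in TET_WT, and 1.68 and 1.71 in TET_KO. The difference was −1.20 ± 0.19 (adjusted p = 0.0127, limma), and all 67 contacts were lower in TET_KO at both stages. Its neighbour Gm9874 differed by −1.30 ± 0.25. The contact of Glp1r with the largest difference between the knock-outs was with Btbd9, 437 kb away. It scored 26.3 and 32.6 in DNMT_KO, 4.42 and 20.1 in DNMT_WT, 2.27 and 5.01 in TET_WT, and 2.34 and 3.65 in TET_KO.

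Among the called promoters outside the named rule, 3 on chromosome 8 (BC021891, Cd209b and AC132606.1) were lower in TET_KO by 0.69 to 1.15. Between the wild types these 3 differed by −0.09 to 0.36. Mfsd7a on chromosome 5, a membrane transporter gene, had a difference of −1.01 ± 0.19 with wild-type differences of −0.09 and −0.16. Gpr1, a receptor for chemerin, was higher by 1.13 ± 0.20, on 3 contacts. These were chosen after their values were seen.

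Promoter differences between the knock-outs recurred at the other stage more than those between the wild types. The wild-type side uses the DNMT_WT ESC column, which stands apart from its line, and cannot be given for both stages without it. At least 0.7 at both stages was reached by 146 promoters higher in TET_KO (0.931%) and 106 lower (0.676%), while 32 reached it in opposite directions. Between the wild types 27 were higher (0.172%), 24 lower (0.153%) and 32 opposite. The sign was shared by both stages for 60.7% of promoters between the knock-outs and for 53.6% between the wild types. Pearson's correlation of the ESC and EpiLC differences was 0.36 for the knock-outs and 0.11 for the wild types, across 15677 promoters that are not independent replicates, and the stages share no column. The correlation between knock-out and wild-type differences was 0.07 in ESC and 0.25 in EpiLC. The split depended on scaling, with 261 higher and 65 lower among the 326 promoters past 0.7 without scaling, and 182 and 84 among 266 with columns divided by their mean.

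**Figure D2:**
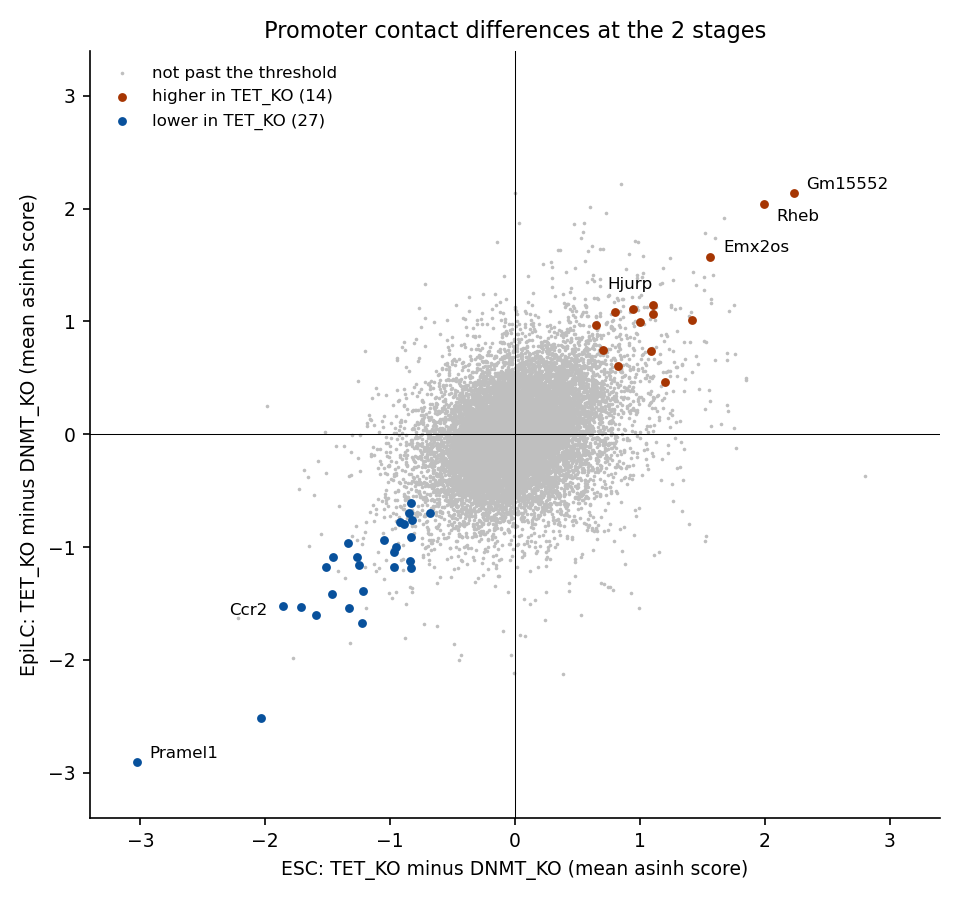
Difference of the promoter value, TET_KO minus DNMT_KO, in ESC (x axis) and EpiLC (y axis), 1 point for each of 15677 promoters. The 14 promoters called higher and the 27 called lower lie along the diagonal, at up to 2.19 for Gm15552 and down to −2.97 for Pramel1 by the mean of both stages.

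Stage changed the difference at some promoters. U1.113, U1.112 and U6.660, copies of spliceosomal RNA genes on chromosome 11, differed by −0.01, 0.04 and 0.24 in ESC and by −2.12, −1.78 and −1.64 in EpiLC. In EpiLC their values were 1.81 to 2.92 in the DNMT and TET_WT columns and 0.74 to 0.87 in TET_KO. Contacts between the window that holds them (85 to 90 Mb) and that at 100 to 105 Mb numbered 15 in TET_KO EpiLC and 108 to 137 in the other 3 EpiLC columns, and in ESC 7 in DNMT_KO, 6 in TET_KO, 19 in DNMT_WT and 73 in TET_WT. The opposite stage pattern was found at Gm10397 (0.60 and 2.02) and its neighbour Ppif (0.47 and 1.86), which encodes the mitochondrial pore regulator cyclophilin D, on chromosome 14. Mbd2, a reader of methylated DNA, differed by −0.09 in ESC and 1.399 in EpiLC, where TET_WT was 0.77 above DNMT_WT as well. The change between stages was not tested, since a stage has 1 column per line.

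Single contacts gave a wider count. A contact was counted where 1 knock-out scored 5 or more and the other under 3 at both stages. By that rule 2266 contacts of 1614 promoters were high in TET_KO (0.923%) and 884 of 618 promoters in DNMT_KO (0.36%), out of 245516 contacts with all scores. The same rule found 972 contacts (0.396%) high in TET_WT and 563 (0.229%) high in DNMT_WT. After quantile normalisation the knock-out counts were 1546 and 1230, so scaling took away most of the excess in TET_KO. With missing scores set to 0 they were 2608 and 2856, and 2215 contacts had no score in any TET column while scored in each DNMT column. Without chromosome 4 the counts were 2121 and 714.

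The contacts high in TET_KO and those high in DNMT_KO were set against the wild types. Of the 2266, 341 (15.05%) were under 3 in all 4 wild-type columns and 37 (1.63%) separated the wild types in the same way. Of the 884, 32 (3.62%) were under 3 in all wild-type columns and 18 (2.04%) separated the wild types in the same way. In EpiLC alone, which does not use the DNMT_WT ESC column, 281 of the 2266 and 199 of the 884 separated the wild types in the same way. Most of both sets, 82.2% and 91.5%, were mixed over both stages, with wild-type scores between the limits or unlike at the 2 stages. These shares have no test.

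The 10 contacts within 1 Mb with the largest differences toward TET_KO came from 6 promoters, Gm15552, 4933426D04Rik and Emx2os among them. Zfp187, a zinc-finger gene, and the neighbouring Mir1896 on chromosome 13 both contacted a group of fragments 341 to 350 kb away. The contact of Zfp187 with 21102404 to 21104745 scored 31.8 and 31.5 in TET_KO and 0 to 0.810 in the other 6 columns. That of Mir1896 with the same fragment scored 26.9 and 21.3 in TET_KO and 0 to 0.936 elsewhere. The zinc-finger promoter as a whole had a difference of 0.78 ± 0.20 over 44 contacts (adjusted p = 0.0923, limma). AC171241.1 on chromosome 14 gained a contact 771 kb away, at 9.004 and 13.6 in TET_KO, 0 and 0.415 in DNMT_KO, 0.280 and 7.08 in TET_WT, and 1.95 and 0.0991 in DNMT_WT.

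The contacts within 1 Mb that were highest in DNMT_KO over TET_KO all lay on chromosome 4. Man1c1, a mannosidase of N-glycan processing, contacted the fragment of Mir700 and Rcan3, 717 kb away, at 31.2 and 57.4 in DNMT_KO, 7.58 and 47.7 in DNMT_WT, 0 and 2.84 in TET_WT, and 0 and 0.326 in TET_KO. Gm13133 contacted a fragment in Prkcz, an atypical protein kinase C, 771 kb away, at 26.4 and 26.3 in DNMT_KO, 7.38 and 19.12 in DNMT_WT and 0 in each TET column. Mir700 itself accounted for 6 of the 10. In EpiLC the 10 contacts scored 11.2 to 57.4 in DNMT_KO and 11.5 to 47.7 in DNMT_WT.

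Farther contacts divided the lines in blocks. Windows of chromosome 4 at 130 to 135 Mb and 140 to 145 Mb, for example, shared 420 and 361 contacts in DNMT_KO, 28 and 516 in DNMT_WT and 0 in the TET columns. Contacts of chromosome 1 (75 to 80 Mb) with chromosome 4 (140 to 145 Mb), at 138 and 161, and of chromosome 14 (50 to 55 Mb) with chromosome 8 (75 to 80 Mb), at 48 and 49 in DNMT_KO, were likewise at 0 in the TET columns. A count of 0 can include empty scores, and 2215 listed contacts had no score in any TET column while scored in each DNMT column. The deposited files hold no copy number or karyotype, so a rearranged chromosome and a changed fold of an intact one cannot be told apart.

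Other far pairs set TET_KO apart from its parent as well. Chromosome 16 (5 to 10 Mb) and chromosome 5 (90 to 95 Mb) were joined by 52 and 55 contacts in DNMT_KO, 9 and 60 in DNMT_WT and 48 and 84 in TET_WT, and by 0 in TET_KO. Chromosome 17 (80 to 85 Mb) and chromosome 4 (10 to 15 Mb) were joined by 8 and 13 contacts in DNMT_KO, 1 and 9 in DNMT_WT, 13 and 15 in TET_WT and 0 in TET_KO. In the other direction, chromosome 11 (5 to 10 Mb) and chromosome 15 (80 to 85 Mb) were joined by 6 and 5 contacts in TET_KO and by 0 in each other column. The single far contacts that follow instead set both TET lines apart from the DNMT lines. The largest, of Gm11399 on chromosome 11 with chromosome 5 at 32731269 to 32734115, scored 1029 and 588 in DNMT_KO, 208 and 531 in DNMT_WT, 6.13 and 0 in TET_WT and 0 in TET_KO. Cd244, a receptor of natural killer cells, contacted chromosome 14 at 90084435 to 90087987 with scores of 65.9 and 27.5 in TET_KO, 67.5 and 86.7 in TET_WT and 0 in the DNMT lines.

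Distance separated the knock-outs in the same way at both stages for contacts under 1 Mb. Contacts under 100 kb at a score of 5 or more numbered 14760 in DNMT_KO and 13430 in TET_KO in ESC, a ratio of 0.910, and 17819 and 15608 in EpiLC, a ratio of 0.876. Contacts of 100 kb to 1 Mb numbered 63673 and 75531 in ESC (ratio 1.19) and 64861 and 79598 in EpiLC (ratio 1.23). TET_KO thus had fewer short and more middle-range contacts, and the wild-type ratios were 0.879 and 0.953 for the short and 0.999 and 1.14 for the middle range. Over all distances the ratio of the knock-outs was 1.12 at both stages. At a score of 3 the short ratios were 0.993 and 0.969, close to 1. In the middle range, contacts of promoters with other fragments gave ratios of 1.20 and 1.26, and contacts between promoters gave 1.10 and 0.981. The 2 columns against 2 cannot give an exact permutation p under 0.333, so no test was made.

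Beyond 1 Mb the ratio turned on chromosome 4. Contacts of 1 to 10 Mb had ratios of 1.51 and 1.09, and 3.65 and 1.74 without chromosome 4. Contacts over 10 Mb had ratios of 0.413 and 0.2499 with chromosome 4, and 1.89 and 1.10 without it. Contacts between chromosomes were fewer in TET_KO both ways, at 0.664 and 0.628 with and 0.796 and 0.753 without chromosome 4, while TET_WT had 1.95 and 0.988 times those of DNMT_WT.

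**Figure D3:**
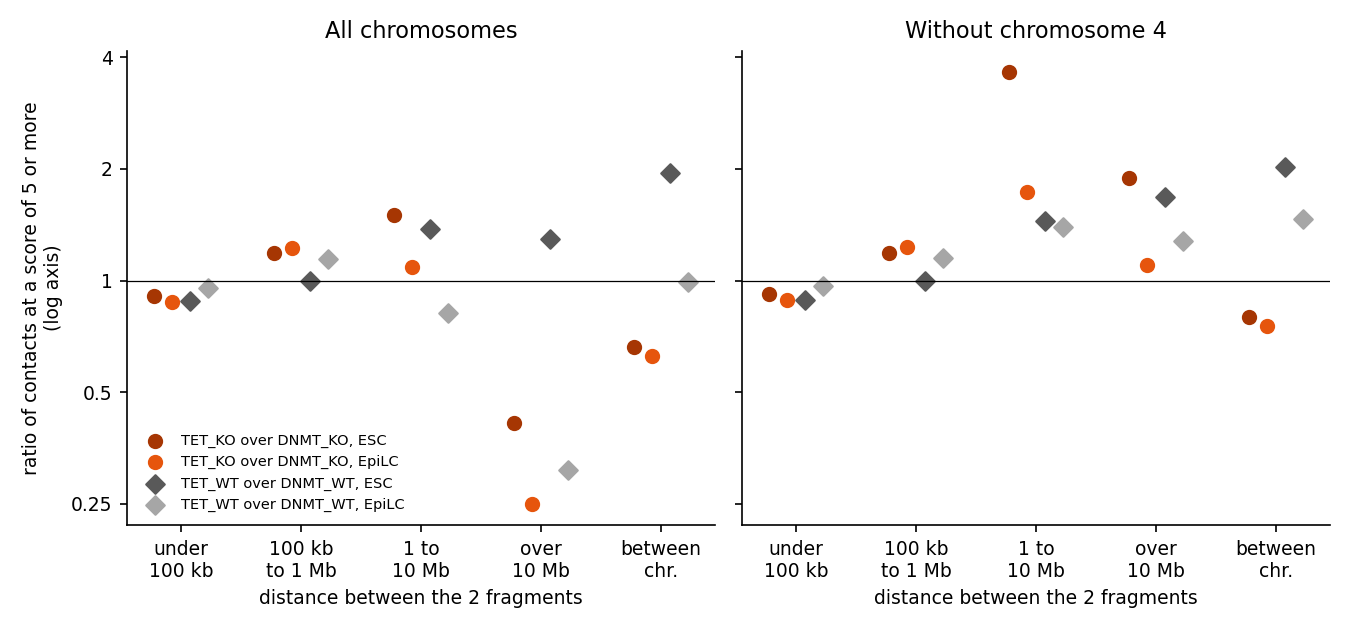
Ratio of the number of contacts at a score of 5 or more (log axis) by distance class, for TET_KO over DNMT_KO (circles) and TET_WT over DNMT_WT (diamonds) at both stages, with all chromosomes (left) and without chromosome 4 (right). The classes under 1 Mb change little between the panels, and the class over 10 Mb moves from 0.413 and 0.2499 to 1.89 and 1.10.

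Whole chromosomes differed as well. The median promoter difference on chromosome 8 was −0.20 in ESC and −0.16 in EpiLC over 805 promoters, against −0.003 for all promoters at both stages, while the wild-type lines differed by 0.12 and 0.02 there. Contacts within 1 Mb on chromosome 8 numbered 5391 in DNMT_KO and 4119 in TET_KO in ESC, and 5429 and 4774 in EpiLC. Relative to all chromosomes this is 0.674 and 0.764, and TET_WT over DNMT_WT was 1.26 and 1.02. The wild types held 4313 and 5448 (DNMT_WT) and 5279 and 6110 (TET_WT). TET_KO thus had the fewest at both stages, but in ESC the DNMT_WT column was close to it. Chromosome 14 was higher in both TET lines, with 0.06 and 0.11 between the knock-outs and 0.13 and 0.19 between the wild types. Chromosome 6 gave 0.06 and 0.01 between the knock-outs and 0.09 and 0.11 between the wild types. The X chromosome was 0.07 higher in TET_KO in ESC and 0.12 lower in EpiLC. Without chromosomes 4, 6, 8 and 14, chosen after the data were seen, 7 promoters were called higher and 12 lower.

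**Figure D4:**
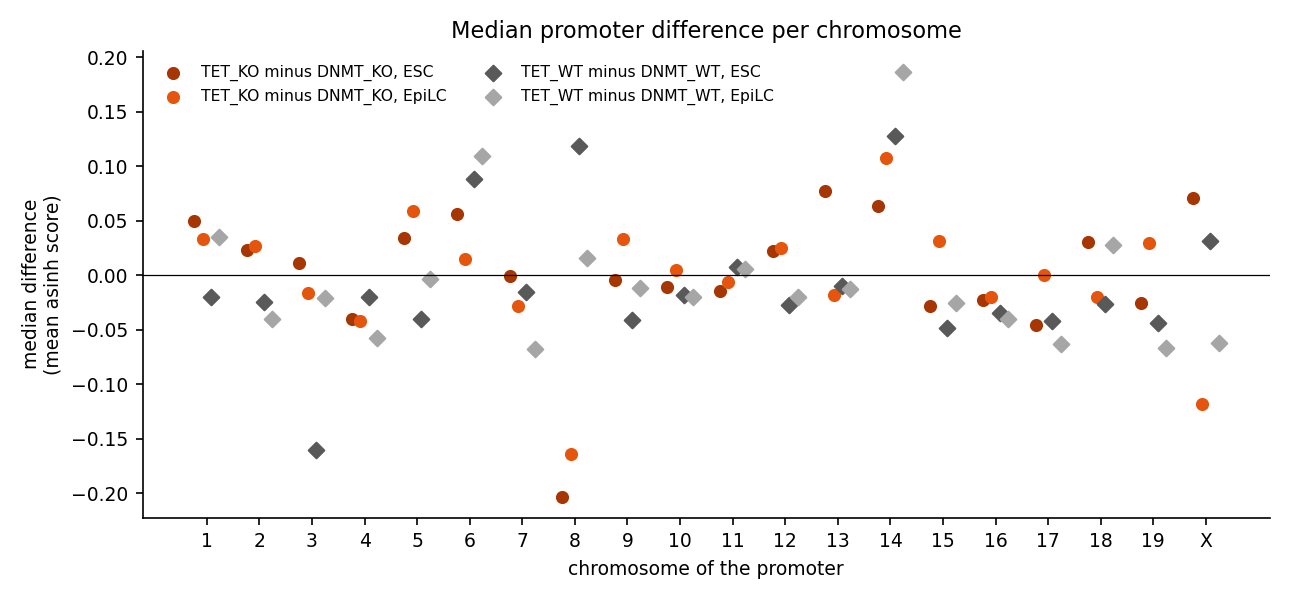
Median difference of the promoter value per chromosome (y axis, mean asinh score) for the knock-outs (circles) and the wild types (diamonds) in ESC and EpiLC. Chromosome 8 is at −0.20 and −0.16 between the knock-outs alone, and chromosome 14 is above 0 in all 4 comparisons.

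Promoters of developmental regulators held more contacts in TET_KO. The list of Polycomb-target regulators, the homeobox, T-box, Fox and signalling genes that Polycomb complexes keep silent in stem cells, had 84 tested promoters. Their contacts at a score of 5 or more, out of 1624 listed, numbered 441 in DNMT_KO and 711 in TET_KO in ESC, and 511 and 838 in EpiLC. The wild-type columns held 401 to 584, so both TET_KO columns lay above the other 6. The same order held over all contacts with full scores, with 91322 and 98194 in TET_KO and 79217 to 90887 in the other 6 columns. The ratios of 1.61 and 1.64 compare with 1.15 and 1.16 over all contacts with full scores, and the wild-type ratios were 0.761 and 1.15. By the contact rule 32 were high in TET_KO (1.97%, against 0.923% of all contacts) and 2 in DNMT_KO (0.123%, against 0.36%).

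The promoter values of the list moved less. Its median difference was 0.13 in ESC and 0.16 in EpiLC, and −0.08 and 0.05 between the wild types, with 41 of 84 higher at both stages (48.8%, against 30.1% of all promoters) and 13 lower (15.5%, against 30.7%). None passed limma's adjusted threshold, and at an unadjusted p under 0.05 there were 15 higher (17.9%, against 7.87% of all promoters) and 1 lower (1.19%, against 7.85%). The members with the smallest p were Onecut1, Shh, Tbx15, Olig2, Foxc1 and Nkx2-5, named after their values were seen. Without scaling the medians were 0.26 and 0.25, against 0.12 and 0.08 over all promoters.

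Onecut1, a factor of liver and pancreas development (chromosome 9, 74859298 to 74867913), differed by 1.19 in ESC and 0.83 in EpiLC (1.01 ± 0.25, adjusted p = 0.0870, limma). Its contact with Wdr72, 721 kb away, scored 14.8 and 17.8 in TET_KO, 0.563 and 1.99 in DNMT_KO, 7.21 and 10.8 in TET_WT, and 1.03 and 2.57 in DNMT_WT. TET_WT was thus between the knock-outs and above DNMT_WT. Shh, the hedgehog morphogen, had 74 contacts and a difference of 0.56 ± 0.14 (adjusted p = 0.0945, limma). An intron of Lmbr1 carries the limb enhancer of Shh. The Shh promoter contacted the fragment at 29341605 to 29342113 in Lmbr1, and whether that fragment holds the enhancer was not examined. This contact scored 4.38 and 8.94 in TET_KO and 0 and 0 in DNMT_KO. The wild types scored 0.104 and 6.68 (TET_WT) and 0.937 and 3.99 (DNMT_WT), so in EpiLC DNMT_KO was the low line. Tbx15, a T-box factor of skeleton and skin, differed by 1.11 ± 0.32, and its contact with Spag17, 689 kb away, scored 4.63 and 7.44 in TET_KO against 0 to 1.32 in the other columns. Foxc1, a forkhead factor of eye and vessel development, differed by 0.56 ± 0.17. Its contact 601 kb away scored 11.5 and 9.99 in TET_KO, 0.914 and 0.942 in DNMT_KO and 1.99 to 7.57 in the wild types. Olig2, which directs motor neurons and oligodendrocytes, differed by 0.51 ± 0.15, and Nkx2-5, a heart factor, by −0.65 ± 0.20 on 4 contacts.

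Hox clusters, listed apart, were not tested against these regulators. Of 31 Hox promoters 0 passed limma's threshold in either direction, adjusted (0.262% of all promoters) or unadjusted (7.87% and 7.85%), with medians of −0.04 and 0.10, and their contacts numbered 551 in DNMT_KO and 548 in TET_KO in ESC, and 473 and 594 in EpiLC (ratio 1.26, against 1.16 over all contacts).

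**Figure D5:**
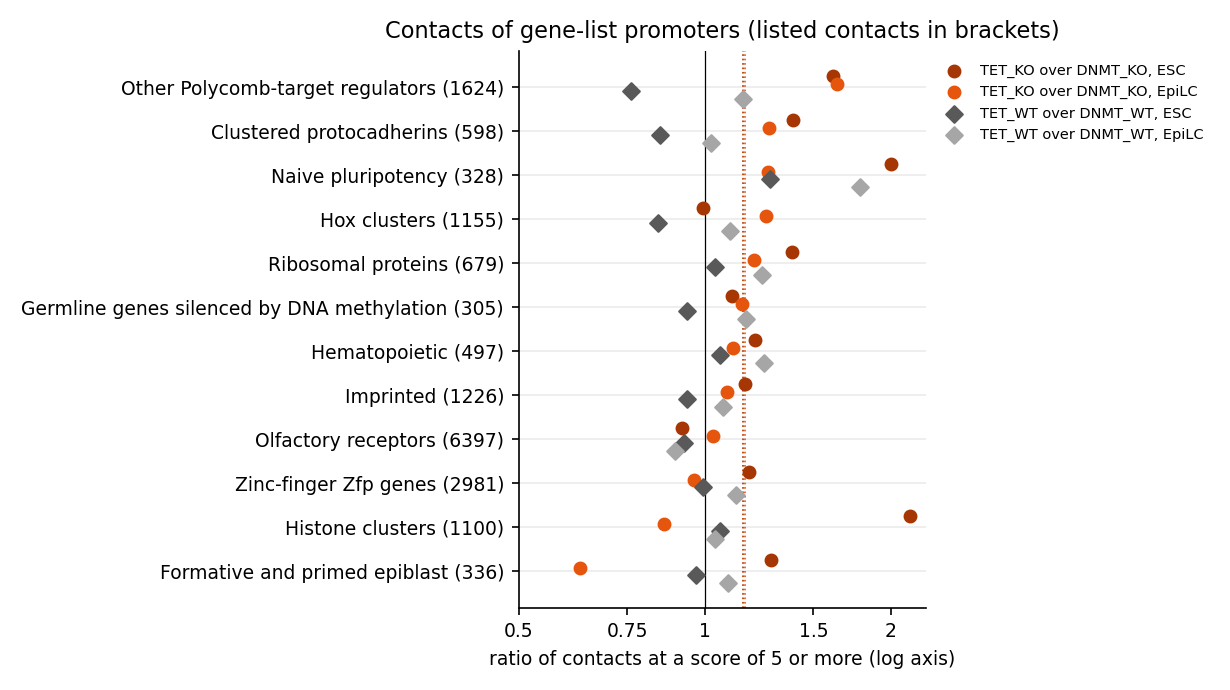
Ratio of the number of contacts at a score of 5 or more (log axis) for promoters of the gene lists with over 300 listed contacts, TET_KO over DNMT_KO as circles and TET_WT over DNMT_WT as diamonds. Dotted lines mark 1.15 and 1.16, the ratios over all contacts. Polycomb-target regulators are at 1.61 and 1.64, and histone clusters at 2.15 in ESC and 0.859 in EpiLC.

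Olfactory receptors are the large family of odorant receptor genes. Of 622 promoters 2 were lower past limma's threshold, Olfr1284 (−0.97 ± 0.16, adjusted p = 0.0160) and Olfr1040 (−0.79 ± 0.15, adjusted p = 0.0388), and 0 were higher. At an unadjusted p under 0.05 there were 97 lower (15.6%, against 7.85%) and 25 higher (4.02%, against 7.87%). The median was −0.11 in ESC and −0.13 in EpiLC, and −0.02 and −0.13 between the wild types. Without scaling it was 0.005 and −0.04, so its sign at the ESC stage depended on scaling. Contacts between receptor promoters numbered 669 and 434 in DNMT_KO and 503 and 360 in TET_KO, with 636 and 443 in DNMT_WT and 511 and 362 in TET_WT, so both TET lines were below both DNMT lines. The contacts of these promoters in all numbered 2140 and 1545 in DNMT_KO and 1966 and 1595 in TET_KO, so in EpiLC the number was not lower. Olfr1284 contacted Olfr1307, 567 kb away, at 6.17 and 4.45 in DNMT_KO and 1.503 and 0.208 in TET_KO.

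Histone clusters differed in opposite directions at the stages. The 33 promoters of replication-dependent histone genes had a median of 0.48 in ESC and −0.45 in EpiLC, where the wild types gave 0.01 and −0.0007. In ESC 27 of 33 were higher in TET_KO and in EpiLC 28 of 33 were lower, and 0 passed limma's adjusted threshold (0 higher and 1 lower at an unadjusted p under 0.05). Contacts between histone promoters numbered 42 in DNMT_KO ESC and 57 in TET_KO EpiLC, and 79 to 107 in each of the other 6 columns. For contacts between histone promoters, each knock-out was thus low at 1 stage. Over all 1100 contacts of these promoters, DNMT_KO ESC held 233 and TET_KO EpiLC 522, with 489 to 608 in the other columns. There TET_KO EpiLC was not low. With contacts within 1 Mb only the medians were 0.18 and −0.35.

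The imprinted, germline and pluripotency lists are read against the 0.262% of all promoters past the adjusted threshold and the 7.87% higher and 7.85% lower at an unadjusted p under 0.05, at which 0 calls in lists of this size is no result. Of 43 imprinted promoters 0 passed limma's adjusted threshold, with 3 higher and 2 lower at an unadjusted p under 0.05 and medians of 0.02 and −0.05. Igf2, the imprinted growth factor, differed by 0.52 and 0.42, Cdkn1c, the imprinted cell cycle inhibitor, by 0.38 and 0.47, and Nespas, an antisense transcript of the Gnas locus, by 0.50 and 0.65 (adjusted p between 0.134 and 0.1997, limma). In the other direction, Herc3, a ubiquitin ligase gene, differed by −0.60 and −0.35, and Rtl1, a retrotransposon-derived gene of the placenta, by −0.42 and −0.50. Of 26 promoters of germline genes silenced by methylation 0 passed, with 0 higher and 2 lower at an unadjusted p under 0.05 and medians of −0.19 and 0.04. Of 24 naive pluripotency promoters 0 passed, with 3 higher and 1 lower at an unadjusted p under 0.05. Their contacts numbered 52 in DNMT_KO and 104 in TET_KO in ESC (ratio 2.00, against 1.15 over all contacts), with TET_WT above TET_KO and 98 in DNMT_WT, and 87 and 110 in EpiLC. Klf4, a core naive factor, had the largest difference of that list, 0.83 in ESC and 0.77 in EpiLC (0.80 ± 0.20, adjusted p = 0.0901, limma). The TET_KO values of its contact with the fragment at 56476636 to 56478161, 944 kb away, were 4.17 and 8.36, against 0 to 3.54 in the other columns. Of 17 formative and primed epiblast promoters 0 passed, with 1 higher and 2 lower at an unadjusted p under 0.05 and medians of 0.06 and −0.32. Their contacts in EpiLC numbered 188 in DNMT_KO and 118 in TET_KO (ratio 0.628, against 1.16 over all contacts), with 146 in DNMT_WT and 159 in TET_WT. In ESC the direction was opposite, with 79 in DNMT_KO and 101 in TET_KO (ratio 1.28), and 123 in DNMT_WT and 119 in TET_WT.

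The remaining lists held 0 promoters past limma's adjusted threshold, which 0.262% of all promoters passed. At an unadjusted p under 0.05 there were 0 higher and 1 lower among 25 hematopoietic promoters, 1 and 2 among 22 clustered protocadherins, 13 and 14 among 207 zinc-finger genes, 5 and 2 among 50 ribosomal proteins, and 1 and 1 among 13 promoters of the methylation machinery. Over all promoters those shares were 7.87% and 7.85%. Their medians lay between −0.11 and 0.14. Of the protocadherins, 11 of 22 were higher in TET_KO at both stages (50%, against 30.1% of all promoters).

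Of the deleted genes, Dnmt1, Dnmt3a, Dnmt3b, Tet2 and Tet3 were tested on 3 to 18 contacts each, and Tet1, with 2 listed contacts, was not. Dnmt3b had the largest difference, −0.17 in ESC and −0.61 in EpiLC (−0.39 ± 0.13, adjusted p = 0.171, limma). Tet2 differed by −0.25 ± 0.15 and Tet3 by 0.22 ± 0.16, and Dnmt1 by −0.27 ± 0.20 and Dnmt3a by 0.09 ± 0.14. A contact of a promoter does not show whether its gene is deleted, so these values are no check of the labels.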

How the data were processed

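The authors deposited 1 table of CHiCAGO scores with 1 column for each of the 8 groups of line and stage. Each group has 2 labelled replicates, and the sources used here do not say how they were combined. Every listed contact reaches a score of 5 in some column. Per the submitters' processing notes, Trim Galore 0.6.5 and cutadapt 2.3 were used and the build was GRCm38. Depth per sample is unknown, so no interval is given. The 15344 contacts (5.88%) with an empty score were dropped for promoter values, for the contact rule and for the contacts of gene lists. That gave 15677 promoters with at least 3 contacts (median 11). Counts by column, distance, chromosome and window used all listed contacts, and an empty score counted there as under 5. Promoter values were tested in R 4.3.3 by limma 3.58.1, using a linear model of line and stage, trended moderation of the variance and Benjamini-Hochberg adjustment over all promoters. On simulated data for TET_KO minus DNMT_KO over 15677 promoters, 54 of 100 true differences of 0.7 and 95 of 100 of 1.4 were recovered, with 18 unchanged promoters called. Counts of contacts have no test. Named promoters are the 10 largest in each direction with at least 10 contacts, past the threshold and with 1 sign at both stages (9 were higher, and Mir146 was added as the largest below it). One of them is not reported here. Named contacts are the largest by the smaller of the stage differences. The comparison, gene lists and thresholds were chosen with earlier results of these data known. Gene names at contact ends and sequences are from RefSeq (GRCm38.p6). A comparison by promoter CG content was not made, because 60.4% of promoters matched a sequence, under the 80% needed. The alternatives are scaling, filters, score limits, columns and chromosomes left out.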

Additional observations from a re-analysis of the deposited data

Results flagged for a closer look

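Differences between TET_KO and DNMT_KO that took opposite signs in ESC and EpiLC are given here, and none of these stage differences was tested, because each stage has 1 column per line. The histone cluster list had a median of 0.48 in ESC and −0.45 in EpiLC, and one of its promoters, Hist1h4b, differed by 0.48 and −1.26. Hoxa2, a Hox gene of the hindbrain, differed by 0.53 and −1.06, with the wild types at 0.81 and −0.85. Rnf17, a germ cell gene, differed by −0.59 and 0.70. U6.660, a spliceosomal RNA copy on chromosome 11, differed by 0.24 and −1.64.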

How the results depend on the processing

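No paired analysis was possible because the table has 1 column per group and carries no replicate numbers. The 41 called promoters became 74 without scaling between columns, 2 with at least 1 contact per promoter, 313 with at least 10, 561 with the 4 knock-out columns only, 75 without the DNMT_WT line, 90 without the DNMT_WT ESC column and 19 without chromosomes 4, 6, 8 and 14. With the number of contacts at 5 or more as the measure limma called 0 (1727 at an unadjusted p under 0.05). The other 6 alternatives gave 29 to 54, of which missing scores set to 0 gave 42 with 12 shared. The 252 promoters beyond 0.7 at both stages became 507 with at least 1 contact, 100 with at least 10, 158 within 1 Mb and 1251 at a difference of 0.4. The 3150 contacts past the rule became 426 (5 or more against under 1), 556 (7 against 3), 15497 (5 against 5) and 5464 (missing scores set to 0). The pooled TET_KO over DNMT_KO ratio of contacts of 1 to 10 Mb went from 1.23 to 0.857 at a score of 7 and to 2.24 without chromosome 4, and that over 10 Mb from 0.324 to 1.45 without chromosome 4. Lists whose median had 1 sign at both stages went from 5 to 9 of 13 without scaling, where olfactory receptors no longer had 1 sign (0.005 and −0.04). Within 1 Mb, of the named promoters Fuca1 reversed to 0.0104, and Fam46b (−0.44), Phactr4 (−0.30), Rheb (2.03, adjusted p = 0.0725 in limma) and Hjurp (0.91, adjusted p = 0.0829 in limma) lost their calls, while Mir146, not called, went from 1.65 to 1.01. The promoter fit by CG class was not run. The causes were not tested. Leaving out chromosomes or the DNMT_WT ESC column was chosen after seeing the data. Scores without depth limit every count.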
